A study of Mus musculus with 38 samples.

Results

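Chromatin acetylation was compared between mouse embryonic fibroblasts (MEFs, E13.5) that carried a retroviral full-length SALL4 (SALL4-WT) and MEFs that carried SALL4-delN12, a form that lacks the N-terminal 12 residues through which SALL4 recruits the NuRD corepressor. The regions described here are the H3K27ac peaks of the delN12 culture with a peak score of 100 or more that overlapped no H3K27ac peak of the WT culture and overlapped a SALL4 peak of the WT culture, by at least 1 bp. These regions were therefore selected on measured H3K27ac and SALL4 values, and their acetylation in delN12, its absence from the WT list and their WT SALL4 peak are the selection itself. The rule kept 9769 regions of 45599 delN12 H3K27ac peaks, which is 33.2% of the 29472 peaks of score 100 or more. Over those 29472 peaks, the background share with no WT H3K27ac peak was 46.5%, or 13703 peaks, and 71.3% of these lay at a WT SALL4 peak, against 92.5% of the peaks that overlapped WT H3K27ac.

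Both cultures started from fibroblasts of crosses of OG2 males, which carry an Oct4-GFP reporter, with 129S4/SvJaeJ females. They were kept in iCD3 medium without BMP4, and the pMXs retrovirus, whose viral promoter acts in many cell types, delivered SALL4 as the single exogenous factor. CUT&Tag, which maps a chromatin mark or a bound protein with an antibody-tethered transposase, was done for H3K27ac and SALL4 in both cultures at day 6. ATAC-seq, which maps accessible chromatin, and RNA-seq were done at days 1, 5, 9 and 11, and ATAC-seq also in the starting MEFs. Each peak list or expression column stands for 1 culture condition with no replicate beside it, so no value below has a replicate error and no test was made. The peak lists hold no read totals, and the depth behind each peak is unknown.

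The WT H3K27ac list was much shorter, with 19841 peaks over 34.9 Mb against 74.4 Mb in delN12. A region missing from the WT list may thus be acetylated below the calling limit there, and a difference in acetylation cannot be told apart from a difference in the sensitivity of the libraries. When the delN12 list was cut to its 19841 highest-scoring peaks, at a score of 161, 5013 of the regions (51.3%) remained. The reverse class was small, since 276 of 10960 WT H3K27ac peaks of score 100 or more (2.52%) had no delN12 peak. The WT and delN12 SALL4 lists were of like length, at 69475 and 67310 peaks.

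SALL4 is a zinc finger transcription factor of early embryonic cells, and its N-terminus binds NuRD, a complex that combines nucleosome remodelling with removal of acetyl groups from histones. H3K27ac, acetylation of lysine 27 of histone H3, marks active promoters and enhancers. Primitive endoderm is the extra-embryonic lineage, driven by GATA, SOX and FOX factors, that lines the early blastocyst cavity and lays down a laminin-rich basement membrane.

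The sequences of 5 regions are given: 3 regions because they lie in introns of primitive endoderm genes, and 2 because they are the highest-scoring regions outside promoters. Each is the 300 bp window centred on the highest-scoring WT SALL4 peak of the region, on the plus strand of mm10. Capitals mark matches, on either strand, to 10 short letter patterns of transcription factor families: the SOX family by ATTGTT, the FOX family by TAAACA, the KLF family by GGGNGTGG, the AP-1 family by TGANTCA, the TEAD family by GGAATG, the RUNX family by TGTGGT, the OCT family by ATGCAAAT, the ETS family by CCGGAAG, the GATA family by AGATAA and SALL4 itself by the AT-rich AATATT. The patterns were searched independently, so matches to different patterns may overlap. The windows are chr17:67731816-67732115 in Lama1, chr15:6411318-6411617 in Dab2, chr7:132286898-132287197 in Chst15 (which also lies within the overlapping annotation of Fgfr2), chr9:58175276-58175575 in Islr and chr17:72158473-72158772 in Alk.
Lama1: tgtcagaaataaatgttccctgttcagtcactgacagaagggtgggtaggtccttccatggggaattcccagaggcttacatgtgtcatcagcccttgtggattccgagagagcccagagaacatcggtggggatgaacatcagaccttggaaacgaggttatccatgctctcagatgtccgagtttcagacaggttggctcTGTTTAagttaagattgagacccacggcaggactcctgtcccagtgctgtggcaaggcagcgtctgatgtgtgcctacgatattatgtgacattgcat
Dab2: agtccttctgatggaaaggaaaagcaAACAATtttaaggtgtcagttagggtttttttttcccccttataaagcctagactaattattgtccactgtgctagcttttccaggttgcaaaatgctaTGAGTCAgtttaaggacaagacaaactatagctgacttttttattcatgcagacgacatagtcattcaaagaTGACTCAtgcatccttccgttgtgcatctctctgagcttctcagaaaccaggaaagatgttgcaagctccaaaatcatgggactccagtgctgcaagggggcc
Chst15: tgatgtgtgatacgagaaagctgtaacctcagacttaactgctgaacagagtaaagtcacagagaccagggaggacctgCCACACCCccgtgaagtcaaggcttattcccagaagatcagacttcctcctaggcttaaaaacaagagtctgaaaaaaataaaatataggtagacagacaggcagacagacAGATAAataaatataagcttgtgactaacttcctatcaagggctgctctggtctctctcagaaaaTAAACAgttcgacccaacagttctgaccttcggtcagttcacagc
Islr: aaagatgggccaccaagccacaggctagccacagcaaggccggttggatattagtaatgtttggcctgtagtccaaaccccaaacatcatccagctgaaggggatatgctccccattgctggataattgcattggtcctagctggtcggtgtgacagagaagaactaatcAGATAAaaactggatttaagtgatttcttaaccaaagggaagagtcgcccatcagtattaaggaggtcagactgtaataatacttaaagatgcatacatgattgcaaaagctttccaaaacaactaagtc
Alk: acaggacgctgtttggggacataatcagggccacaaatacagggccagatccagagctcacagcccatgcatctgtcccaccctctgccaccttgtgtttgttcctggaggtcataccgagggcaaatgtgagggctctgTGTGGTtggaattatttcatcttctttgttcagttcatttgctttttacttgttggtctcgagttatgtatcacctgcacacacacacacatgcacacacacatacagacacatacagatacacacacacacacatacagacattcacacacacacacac

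The Lama1 window held 1 FOX match, and the Dab2 window held 2 AP-1 matches and 1 SOX match. The Chst15 window held 1 match each to the GATA, FOX and KLF patterns. The strongest region, in Islr, held 1 GATA match, and the Alk window held 1 RUNX match.

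The regions were mostly moderate peaks that were seldom next to a called WT H3K27ac peak. Their delN12 H3K27ac score, which is −10 times the log10 of the peak caller's p-value, had a median of 164 and reached 707, with a median length of 1277 bp. The lowest-scoring members sat between the threshold and 100.04, and the nearest peaks below the threshold that met the rest of the rule sat at 99.96 to 99.99. There were 7109 such peaks below the threshold. The median gap to the closest WT H3K27ac peak was 27298 bp, and 132 regions (1.35%) had one within 1 kb, so the regions were seldom shoulders of a WT peak. A WT H3K27ac peak was within 10 kb of 22.1% of the regions and within 50 kb of 66.8%. The median gap of the delN12-only peaks without WT SALL4 was larger, at 32812.5 bp.

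Most regions lay away from promoters. A transcription start site (TSS) of a protein-coding gene was within 2 kb of 858 regions (8.78%), whereas 48.6% of regions were in introns, 38.2% were intergenic and 4.41% were in exons. Among the 15769 delN12 peaks that overlapped WT H3K27ac, 59.0% were at a TSS. Among the 3934 delN12-only peaks without WT SALL4, 16.5% were. The distance from the middle of a region to the closest TSS had a median of 37574 bp, against 657 bp for the peaks acetylated with both forms. The promoter share of the regions was between 6.66% and 9.48% in all 4 score bins from 100 upward, while that of the peaks with WT H3K27ac went from 30.1% in the lowest bin to 74.4% in the highest.

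**Figure D1:**
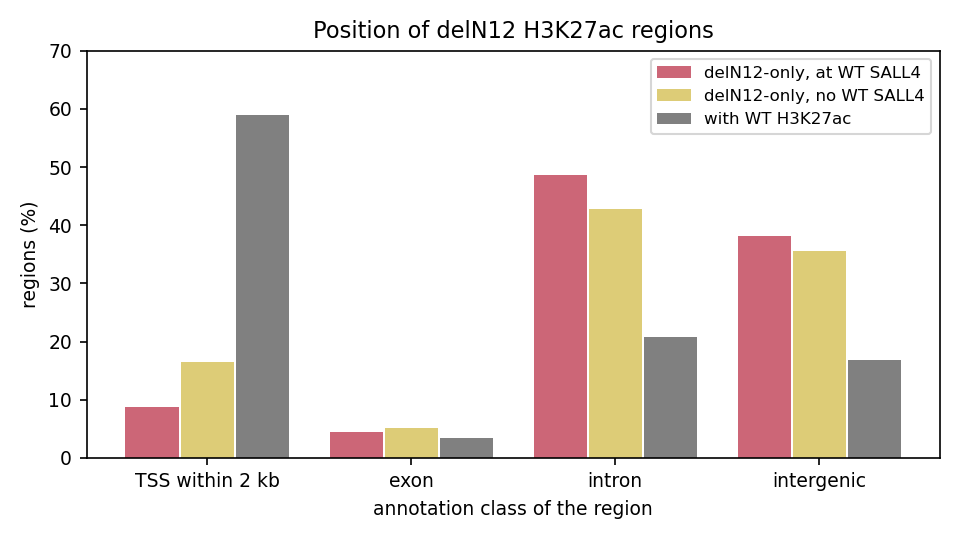
Share of delN12 H3K27ac regions (percent, y axis) in 4 annotation classes (x axis) for the 9769 delN12-only regions at WT SALL4 sites, the 3934 delN12-only regions without WT SALL4 and the 15769 regions with WT H3K27ac. The first class holds 8.78% of the delN12-only regions at WT SALL4 sites and 59.0% of the regions with WT H3K27ac.

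The 10 highest-scoring regions, with scores from 582 to 707, included none within 2 kb of a TSS. Of these, 7 were intronic and 3 intergenic, and 9 had an ATAC peak in all 9 libraries. The highest was the Islr region, chr9:58174317-58176833, at a score of 707. The next were chr17:72157350-72159885 in Alk at 640, chr3:152567234-152570279 in Ak5, an adenylate kinase gene, at 626, and chr1:62241264-62243495 in Pard3b, a cell polarity gene, at 625. All 10 had a delN12 SALL4 peak.

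SALL4-delN12 occupied most of the same sites. A delN12 SALL4 peak, which the selection did not use, overlapped 8857 of the 9769 regions (90.7%), against 75.9% of the delN12-only regions without WT SALL4 and 75.3% of the regions with WT H3K27ac. Over all 29472 delN12 H3K27ac peaks of score 100 or more the share was 80.5%. Because longer regions catch more peaks, the WT SALL4 peaks themselves were also compared. A delN12 SALL4 peak overlapped 89.5% of the 10049 WT SALL4 peaks within the regions, 77.7% of the 15219 within peaks acetylated with both forms, and 26.1% of the 34015 with no H3K27ac peak in either list. The median scores of these WT SALL4 peaks were 139, 192 and 85.2 in turn, so the groups also differed in peak strength. The share of regions with a delN12 SALL4 peak rose with the H3K27ac score, from 85.2% of regions of score 100 to 150 to 99.4% of those above 300. Median length rose over the same bins from 1030 to 1862 bp, and the share rose in the other classes too, from 72.7% to 94.2% without WT SALL4 and from 56.2% to 83.7% with WT H3K27ac.

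The rank of SALL4 at these sites also differed between the 2 forms. Each SALL4 score was expressed as its percentile in its own list, since the lists were scored separately. Over the 8857 regions with both SALL4 peaks, the percentile was higher in delN12 at 5625 and higher in WT at 3232, with a median difference of 7.8 points. It was higher in delN12 by more than 20 points at 33.7% of these regions and lower by more than 20 points at 15.5%. Over the 11616 regions with WT H3K27ac and both SALL4 peaks the order was the other way round, with a median difference of -16.3 points, 5.24% higher by more than 20 points and 44.03% lower. Percentiles compare ranks and not amounts of bound SALL4, and the WT SALL4 peak was part of the selection.

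**Figure D2:**
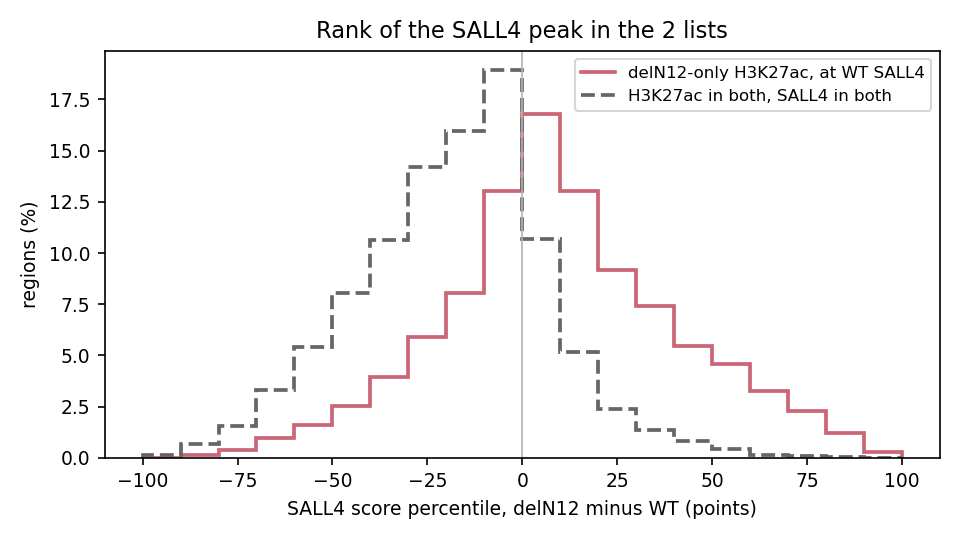
Histogram of the SALL4 score percentile in delN12 minus that in WT (points, x axis; percent of regions, y axis, bins of 10 points) for the 8857 delN12-only H3K27ac regions with SALL4 in both lists (solid) and the 11616 regions with H3K27ac and SALL4 in both (dashed). The solid curve has its median at 7.8 points and the dashed curve at -16.3 points.

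An ATAC peak overlapped 84.6% of the regions in MEFs, before SALL4 was introduced, against 88.98% of all 29472 delN12 H3K27ac peaks of score 100 or more and 71.9% of the delN12-only regions without WT SALL4. In MEFs the share was thus below that of all peaks. Of the regions, 4863 (49.8%) had a peak in all 9 ATAC libraries, while 36 had a peak in none. In SALL4-WT the share with an ATAC peak at days 1, 5, 9 and 11 was 73.01%, 86.6%, 88.4% and 86.7% in turn. In SALL4-delN12 it was 90.9%, 90.5%, 91.5% and 79.7%. Over all 29472 peaks the shares were 79.5%, 87.9%, 88.7% and 89.2% in WT and 90.2%, 91.1%, 92.6% and 85.9% in delN12. The WT share was thus lowest at day 1 and the delN12 share lowest at day 11 in the regions and in all peaks alike, and both of these were lower in the regions. Peaks in all 9 libraries were at 65.2% of all peaks. Regions with WT H3K27ac differed little at day 1, near the MEF level in both cultures, as the plot of ATAC peaks by day shows.

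At day 1, 2085 regions (21.3%) had an ATAC peak in delN12 and none in WT, and 339 (3.47%) the reverse, against a background of 14.1% and 3.33% over all 29472 delN12 H3K27ac peaks of score 100 or more. Of these 2085 regions, 1455 had a WT ATAC peak at day 5. Of the 8265 regions open in MEFs, 1908 had no WT peak at day 1, of which 1310 (68.7%) had one again at day 5, and 576 had no delN12 peak at day 1. The selected set includes the day 6 difference in acetylation, so ATAC is an independent measurement at the same sites but the sites were not chosen without regard to the 2 cultures.

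The difference between the cultures was smaller at days 5 and 9. At day 5, 9.49% of regions had a peak in delN12 alone and 5.64% in WT alone, against a background of 7.56% and 4.34%. At day 9 these shares were 8.33% and 5.17%, against 7.37% and 3.52%. At day 11 the order turned, with 591 regions (6.05%) in delN12 alone and 1269 (13.0%) in WT alone, against 4.6% and 7.91%. The ATAC lists moved in the same way, with 83821 WT and 94828 delN12 peaks at day 1 and 89245 WT and 78517 delN12 peaks at day 11, and the part of list length in these differences was not tested.

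**Figure D3:**
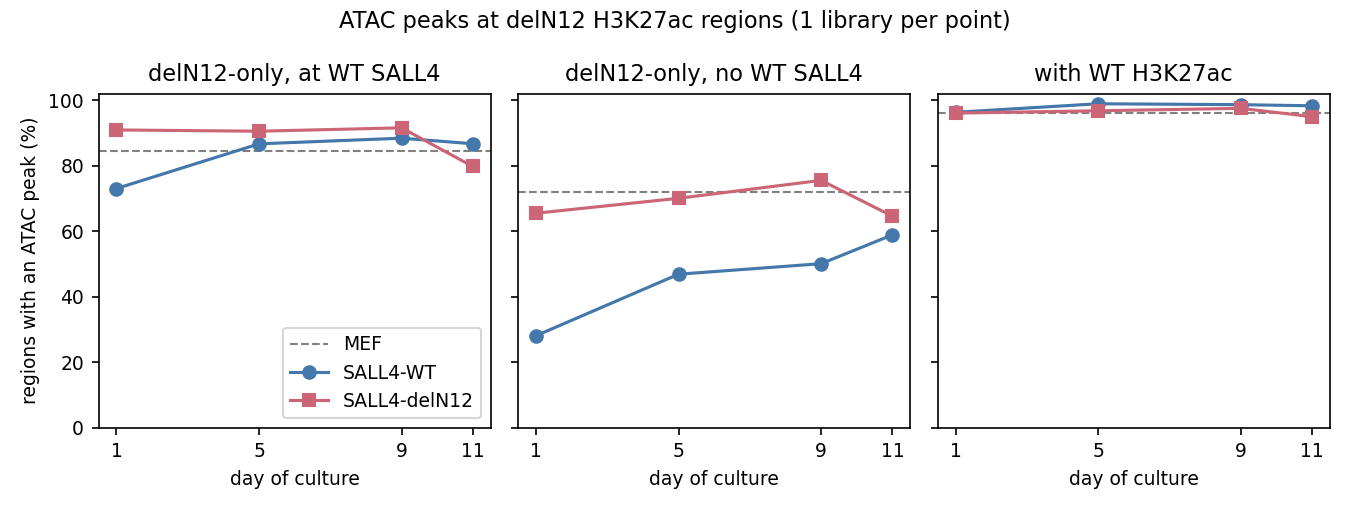
Percent of regions with an ATAC peak (y axis) by day of culture (x axis) in SALL4-WT (circles) and SALL4-delN12 (squares), with MEFs as a dashed line, for 3 classes of delN12 H3K27ac peaks; each point is 1 library. In the first panel the WT point at day 1, 73.01%, is the lowest, and the delN12 curve falls below the WT curve at day 11 only.

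The WT SALL4 peaks alone were also compared, with median lengths of 979 bp within the regions and 752 bp without H3K27ac in either list. Their median scores were 139 and 85.2. WT SALL4 peaks within the regions had an ATAC peak in 82.1% of cases in MEFs, 71.0% in WT day 1 and 88.7% in delN12 day 1. WT SALL4 peaks without H3K27ac in either list had one in 34.4%, 41.3% and 40.0%. The delN12-only regions without WT SALL4 showed a wider gap at day 1, with 28.1% in WT and 65.5% in delN12. The gap was thus not particular to regions with WT SALL4.

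A minority of 1504 regions (15.4%) had no ATAC peak in MEFs. Of these, 51.5% had one in WT and 79.1% in delN12 at day 1, and 73.7% and 60.4% at day 11. Most, 1309, were open in both cultures at some day, whereas 104 were open with delN12 alone, 55 with WT alone and 36 in neither. Open in both were thus 87.0% and open with delN12 alone 6.92% of the regions closed in MEFs, against 73.9% and 14.3% of all 3248 peaks closed in MEFs and 46.9% and 31.8% of the 1105 that were delN12-only without WT SALL4. Counting only regions open at both days 9 and 11 in one culture and at neither day in the other, 197 of the 9769 regions were open in delN12 and 235 in WT. These are shares of 2.02% and 2.41%, against a background of 2.07% and 1.51% over all 29472 peaks. In the 3934 delN12-only regions without WT SALL4 the counts were 395 (10.04%) and 76 (1.93%). The delN12 list of day 11 was the shorter one, as given above.

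AP-1 letters, bound by the FOS and JUN proteins that mark fibroblast enhancers, were in 41.7% of the 300 bp windows, RUNX letters in 28.2%, TEAD letters in 24.8%, FOX letters in 19.9%, and SOX and GATA letters in 14.8% each. Over 69454 windows at all WT SALL4 peaks the shares were 36.1% for AP-1, 27.1% for RUNX, 22.5% for TEAD, 16.7% for FOX, 12.7% for SOX and 13.7% for GATA. Sites of peaks acetylated with both forms held fewer of these patterns, with AP-1 in 16.9% and GATA in 7.99%, and more KLF letters, 18.1% against 10.3%. OCT letters, the octamer bound by POU factors, were in 1.52% of the windows, and ETS letters in 1.90%, against 1.31% and 3.601% of all WT SALL4 windows and 0.871% and 10.6% of those of peaks acetylated with both forms.

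The classes differed in base content and position. The median GC content was 47.3% in the windows of the regions and 57.3% in those of peaks acetylated with both forms. Among sites without a TSS within 2 kb, the AP-1 share was 44.1% in the regions, of median GC 47.0%, 32.3% in the peaks with WT H3K27ac, of median GC 50.3%, and 26.1% in delN12-only peaks without WT SALL4, centred on the H3K27ac peak and of median GC 45.7%. At these sites the regions and the peaks with WT H3K27ac also differed less in the other patterns. GATA letters were in 15.4% and 13.3%, RUNX in 29.2% and 25.5%, and TEAD in 25.65% and 22.5%. FOX letters were in 20.7% and 16.2%, SOX in 15.6% and 11.9%, and KLF in 9.44% and 14.55%. The AT-rich pattern of SALL4 was in 5.94% of the windows of all regions and 4.15% of all WT SALL4 windows. It was in 8.70% of windows of delN12-only peaks without WT SALL4. The latter held FOX letters in 19.8% and GATA and SOX letters in 13.98% each, close to the shares of the regions. Of the regions closed in MEFs, 17.5% held GATA letters and 39.8% AP-1 letters. In the 56 of them open late in delN12 alone, 17 windows (30.4%) held GATA letters, 14 FOX letters, 9 (16.1%) SOX letters and 22 (39.3%) AP-1 letters, so SOX and AP-1 were close to their shares in all regions closed in MEFs, 17.95% and 39.8%.

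RNA of genes with a region at the promoter was not shifted toward higher levels in delN12. There were 880 protein-coding genes with a region within 2 kb of a TSS, of which 849 were in the expression table, and those with at least 1 FPKM (fragments scaled by gene length and library size) in a library of the day were compared. The median difference of log2(FPKM + 1), delN12 minus WT, stood at -0.11, -0.05, -0.01 and -0.09 for days 1, 5, 9 and 11, over 504 to 577 genes. For all protein-coding genes the medians were -0.03, -0.01, 0.03 and 0.01.

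Large differences were more frequent than over all genes in both directions, except that the share higher at day 11 was close to the background. A gene is called higher or lower here from a difference of 1 on the log2 scale. At day 1, 43 genes (8.53%) were higher and 47 (9.33%) lower in delN12, against a background of 3.77% and 5.13% of all genes. At day 5, the day closest to the acetylation data, 48 (8.76%) were higher and 58 (10.6%) lower, against 4.44% and 4.85%. At day 9, 51 (9.27%) were higher and 60 (10.9%) lower, against 5.76% and 5.66%, and at day 11, 40 (6.93%) were higher and 68 (11.8%) lower, against 6.25% and 6.05%. These genes were expressed at lower levels than genes in general, with a median of 5.08 FPKM against 8.42 in WT at day 5, and low FPKM values are measured with fewer reads. The 9761 genes whose promoter carried H3K27ac in both cultures and no region of the set differed less often, with 2.93% higher and 3.79% lower at day 11. The 550 genes with delN12-only H3K27ac without WT SALL4 at the promoter differed more often than the genes with a region, with 14.6% higher and 13.02% lower at day 5 and 13.4% higher and 15.4% lower at day 11. Of the genes with a region in the expression table, 160 also had WT H3K27ac at the promoter and 689 had none. At day 5, 10.29% of those compared without it were higher and 12.25% lower, against 4.29% and 5.71% with it. At day 11 these shares were 7.69% and 12.59% without it, and 4.73% and 9.46% with it. Frequent differences were thus shared by genes with a region and no WT H3K27ac there and by the 550 genes without WT SALL4 there. Genes with WT H3K27ac there were near the background at day 5 and above it in the share lower at day 11.

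**Figure D4:**
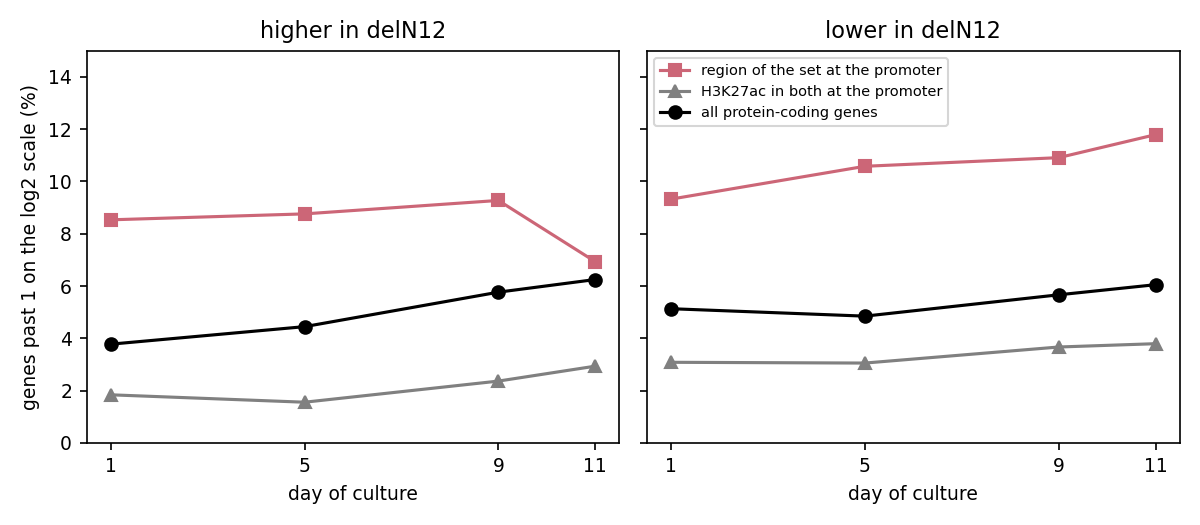
Percent of genes (y axis) higher (left) or lower (right) in delN12 by at least 1 on the log2(FPKM + 1) scale at each day of culture (x axis), for genes with a delN12-only region at the promoter, genes with H3K27ac of both cultures there, and all protein-coding genes; each point compares 1 library with 1 library. At day 11 the genes with a delN12-only region stand at 6.93% higher and 11.8% lower.

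Genes near several regions had lower median RNA in delN12 at day 11. A region had its closest TSS within 50 kb in 5686 cases, which assigned regions to 4205 genes. At day 11 the median difference was -0.08 over 2202 genes with 1 region, -0.15 over 608 genes with 2, -0.31 over 210 genes with 3 or 4 and -0.33 over 24 genes with 5 or more. Among the 210 genes with 3 or 4 regions, 7 (3.33%) were higher and 28 (13.3%) lower, against the background of 6.25% and 6.05%. At days 1, 5 and 9 the medians of the genes with 3 or 4 regions were nearer to 0, at -0.097, -0.1 and -0.111, whereas those of the genes with 5 or more were about as low as at day 11, at -0.264, -0.296 and -0.365. The genes with 2 regions were more often higher (8.85%) than lower (5.96%) at day 1. The genes with most regions were Bach2 and Mecom, transcription factor genes with 8 regions each. Mecom stood at 1.14, 1.54, 1.54 and 1.25 FPKM in WT and 0.863, 0.730, 0.459 and 0.225 FPKM in delN12 at days 1, 5, 9 and 11. Slc23a2, a vitamin C transporter gene with 5 regions, was at 20.6, 28.7, 49.1 and 30.5 FPKM in WT and 5.82, 12.8, 16.0 and 11.6 FPKM in delN12. Ets2, a transcription factor gene with 5 regions, went the other way, at 17.9, 10.8, 10.4 and 12.5 FPKM in WT and 33.8, 20.7, 19.2 and 22.2 FPKM in delN12. The closest gene need not be the one a region acts on, and genes in wide intergenic space collect more regions.

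The 327 genes with a region at the promoter and at least 5 FPKM at day 11 were ranked by their difference, and the 10 at each end are described. The highest was Dusp9, a phosphatase gene that restrains ERK signalling. Its RNA was 15.01, 13.5, 11.2 and 11.9 FPKM in WT and 17.0, 103, 149 and 108 FPKM in delN12, a difference of 3.07 on the log2 scale at day 11. Its region, chrX:73638960-73640676, had a WT SALL4 peak of score 122 and no delN12 SALL4 peak. The next were Cryba2, a crystallin gene (2.55), Arsi, a sulfatase gene (2.22), Sstr2, a somatostatin receptor gene (2.17), Alox5ap, needed for leukotriene synthesis (1.95), and Atf3, a stress-responsive AP-1 relative (1.89). They were followed by Krt18, an epithelial keratin gene (1.87), Ctsk, a collagen-degrading protease gene (1.79), Wnt7b, a WNT ligand gene (1.75), and Col23a1, a transmembrane collagen gene (1.69). Alox5ap differed by less than 1 at day 1 (-0.46) and day 5 (0.96). The other 9 had differences above 0 at all 4 days, though Dusp9 (0.17) and Cryba2 (0.57) were under 1 at day 1.

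At the other end of the ranking, Steap4, a metalloreductase gene, was lowest at -3.64, followed by Col5a3, a fibrillar collagen gene, at -3.31. Bmp2, the BMP ligand gene, was at 48.1, 57.5, 73.4 and 45.4 FPKM in WT and 1.20, 4.19, 4.40 and 3.90 FPKM in delN12, so the 2 ranges did not overlap. Its promoter region, chr2:133553988-133555281, scored 117 for H3K27ac, and WT H3K27ac was present elsewhere within 2 kb of a Bmp2 TSS. The others were Maob, a monoamine oxidase gene (-2.78), Vegfd, a lymphatic growth factor gene (-2.54), Stbd1, which binds glycogen (-2.49), Ogn, a matrix proteoglycan gene (-2.44), Col15a1, a basement membrane collagen gene (-2.42), Olfm2 (-2.41) and Dpt, a dermal matrix protein gene (-2.40). Of these 10, Maob was higher in delN12 at day 1 (1.1) and lower from day 5 on. Col5a3 (0.09), Col15a1 (0.08) and Dpt (0.96) differed by less than 1 at day 1 and were lower from day 5 on. Vegfd (-0.48), Stbd1 (-0.61) and Ogn (-0.7) were lower at day 1 by less than 1. At day 9 the ranking of 316 genes also brought in Dbh, which makes noradrenaline (4.09), and Prkag3, an AMPK subunit gene (2.23), on the higher side. It brought in Areg, an EGF receptor ligand gene (-3.65), Serping1, a complement inhibitor gene (-2.92), and En1, a homeobox gene (-2.42), on the lower side.

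**Figure D5:**
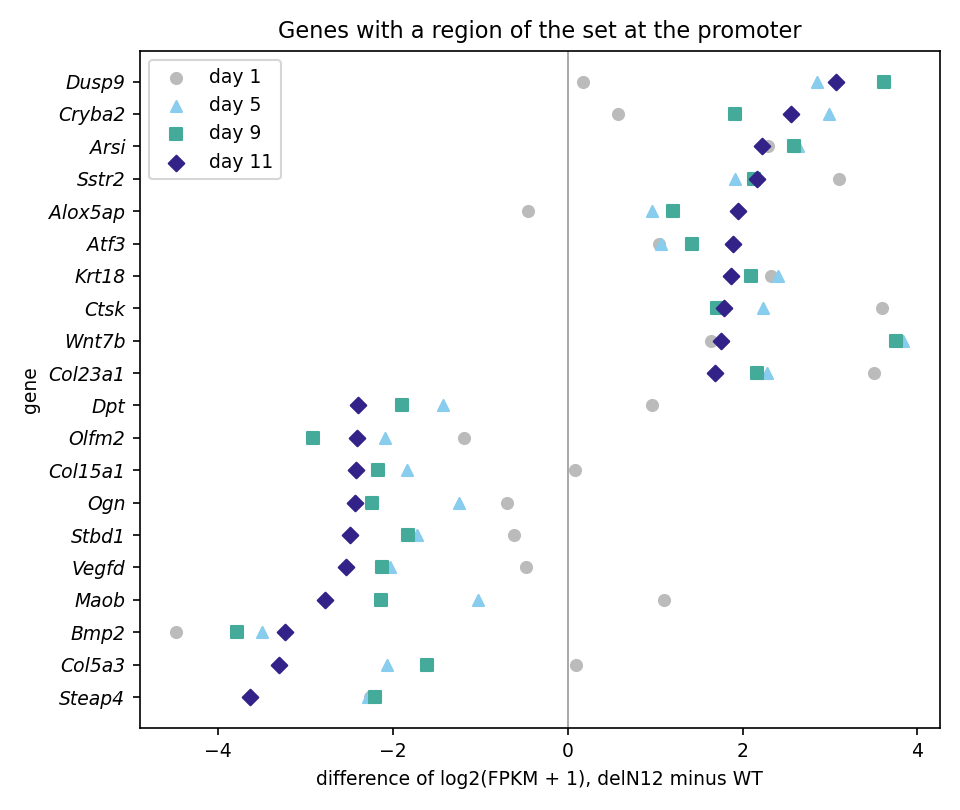
Difference of log2(FPKM + 1), delN12 minus WT (x axis), at days 1, 5, 9 and 11 for the 10 genes highest and the 10 lowest at day 11 (y axis) among 327 genes with a delN12-only region at the promoter; each symbol is 1 library against 1 library. Bmp2 lies below -3 at all 4 days, and Dusp9 is near 0 at day 1 and at 2.85 or more from day 5 on.

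Primitive endoderm genes had no region at a promoter, against 4.83% of all expressed genes with one, and a few regions farther away. In a list this short, none is near that share. Of a list of 12, 4 were the closest gene of 5 regions, against 25.1% of all expressed genes with a region at the promoter or closest within 50 kb. Of the 12, 6 already had WT H3K27ac at a TSS. At day 11, 10 of the 12 genes were higher in delN12 and none lower, including all 4 with a region, against the background of 6.25% and 6.05% of all genes. Sox17 and Foxa2 reached 1 FPKM at day 11 in delN12 alone, so they were compared because of the culture where they were higher. The paper already reported primitive endoderm markers as higher in delN12 by bulk RNA-seq, and the list was chosen with that known. Lama1, the laminin alpha chain of the embryonic basement membrane, was at 1.30, 1.65, 1.84 and 3.38 FPKM in WT and 1.31, 2.35, 19.0 and 50.2 FPKM in delN12. The 2 cultures overlapped at day 1 and separated from day 9. Its region, whose sequence is given above, had H3K27ac score 122, a WT SALL4 peak of score 58.6 and a delN12 SALL4 peak of score 237, and was open in every ATAC library but MEF.

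The other 3 differed later and less. Dab2, an endocytic adaptor gene of visceral endoderm, was at 11.02, 7.93, 11.6 and 10.0 FPKM in WT and 6.32, 6.80, 10.7 and 22.7 FPKM in delN12, so it was higher in delN12 at day 11 only. Its 2 regions, of scores 216 and 214, were open in all 9 ATAC libraries. Eva1a, an autophagy gene, differed by 1.06 and Chst15, a chondroitin sulfotransferase gene, by 1.10 at day 11. The Chst15 region had no delN12 SALL4 peak.

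In the next lists the shares to set beside the counts are again 25.1% of expressed genes near a region and, at day 11, 6.25% of all genes higher and 6.05% lower. Of 10 endoderm transcription factor genes, 5 were the closest gene of 7 regions, and 3 of the 9 compared at day 11 were higher in delN12. Gata2 and Sox7 had 2 regions each and differed by 0.56 and -0.01 at day 11. Of 12 genes of yolk sac endocytosis and serum proteins, 4 were the closest gene of 5 regions, and all 4 were higher at day 11, as were 5 of the 7 of the list compared. Apoa1, the apolipoprotein of HDL, was at 0.0650, 0.676, 0 and 0.175 FPKM in WT and 0.343, 11.6, 14.9 and 11.8 FPKM in delN12, while its region, with its middle -13166 bp from the TSS, was open in all 9 ATAC libraries. The others near a region were Lrp2, the endocytic receptor megalin (1.08), Amn, the amnionless gene (1.22), and Dab2.

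Basement membrane genes were split. Of 13, Lama5 and Nid1 had a region at the promoter, against 4.83% of all expressed genes, and 8 were closest to 10 regions. At day 11, 1 of those 8 (Lama1) was higher and 1 (Nid1) lower, and of all 13, 2 were higher and 1 lower. At day 5 none of the 13 was higher and 3 were lower, against 4.44% and 4.85% of all genes. At day 9, 2 were higher and 3 lower, against 5.76% and 5.66%. Col4a1, with 2 regions, differed by -1.8 at day 5, -1.17 at day 9 and 0.07 at day 11. Nid1, the laminin-binding nidogen, was at 225, 191, 316 and 133 FPKM in WT and 46.0, 74.1, 110 and 50.7 FPKM in delN12. The Nid1 region, chr13:13438441-13439037, had a WT SALL4 peak and no delN12 SALL4 peak, and was open in 3 of 9 ATAC libraries. Lama5 was at 34.1 FPKM in WT and 36.7 FPKM in delN12 at day 11.

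Of 20 fibroblast genes, 7 were lower and 3 higher in delN12 at day 11, against the background of 6.05% and 6.25% of all genes. Of the 20, none had a region at the promoter, near the 4.83% of all expressed genes with one, and 8 were the closest gene of 15 regions. Of these 8, 5 were lower and 1 higher, and of the 12 without a region 2 were lower and 2 higher. Postn, a matrix protein gene, was at 53.3, 124, 78.8 and 118 FPKM in WT and 24.3, 11.7, 17.4 and 18.6 FPKM in delN12. Lox, the collagen crosslinking enzyme gene, was at 33.7, 36.8, 51.4 and 74.5 FPKM in WT and 7.95, 3.62, 3.69 and 6.48 FPKM in delN12, with no overlap between the cultures. Prrx1, a mesenchymal homeobox gene with regions of scores 264 and 259, was lower by 1.83 at day 11. Tgfbi, a matrix protein gene, was the exception at 2.2, and Runx1, with 3 regions, differed by 0.59.

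Among epithelial genes, 10 of 12 were higher in delN12 at day 11 and none lower, against 6.25% and 6.05% of all genes, and 3 of the 12 were close to a region, against 25.1% of expressed genes. Krt8, the keratin partner of Krt18, was at 9.79, 11.3, 21.8 and 31.8 FPKM in WT and 141, 166, 170 and 169 FPKM in delN12. Krt18 was at 94.96, 82.0, 104 and 85.9 FPKM in WT and 478, 441, 449 and 316 FPKM in delN12. Cldn4, a tight junction gene, was at 44.6, 37.9, 43.2 and 42.2 FPKM in WT and 260, 263, 235 and 148 FPKM in delN12. In each of these 3 genes the difference was present at day 1, before the day of the acetylation data. Of 8 BMP target genes, 6 were the closest gene of 8 regions, and 4 of the 8, Id1, Id2, Id3 and Smad6, were lower in delN12 by 1 or more at each of days 1, 5 and 9, against 5.13%, 4.85% and 5.66% of all genes. Bambi was higher at day 1 (1.42), and none of the 8 differed by 1 or more at day 11. Id1 and Id2 were each close to 1 region, and Id3 and Smad6 to none. Id1, an inhibitor of bHLH factors, was at 570, 548, 577 and 374 FPKM in WT and 215, 214, 223 and 261 FPKM in delN12.

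Of 14 NuRD genes, 5 were closest to a region, all 14 had WT H3K27ac at a TSS, and none differed by 1 at any day. Chd4, the remodelling ATPase, was at 46.5 FPKM in WT and 48.7 FPKM in delN12 at day 11. Of 20 pluripotency genes, 4 had a nearby region, Dppa2 and Tfcp2l1 at the promoter, against 4.83% of all expressed genes with a region there. Tfcp2l1, a naive pluripotency factor gene, was at 0.159, 0.122, 0.306 and 0.483 FPKM in WT and 0.255, 3.23, 0.855 and 1.32 FPKM in delN12, a difference of 1.91 at day 5. Nanog was at or below 0.239 FPKM in every library of both cultures. At day 11, 4 of the 8 pluripotency genes compared were higher in delN12 (Lin28a, Dppa5a, Tdh and Klf2) and 1 lower (Sox2). None of these 5 had a region. Lin28a, Dppa5a and Tdh reached 1 FPKM in delN12 alone and Sox2 in WT alone. These 4 were thus compared because of the library where they were higher, and the counts partly follow from the FPKM filter. Of 12 AP-1 genes, 4 had a nearby region, and 1 of the 12 was higher and 3 lower at each of days 5 and 9, against 4.44% and 4.85% of all genes at day 5 and 5.76% and 5.66% at day 9, and 2 were higher and 1 lower at day 11. Of the 4, Atf3 was higher at all 4 days, and Fos was lower by 1.35 at day 5 and 1.99 at day 9.

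Of 3 marker lists, the summed level of the macrophage list alone did not overlap between the cultures. Macrophage markers were higher in delN12 at day 11 in all 7 compared of 8, with a median difference of 3.58, and their summed level ran from 29.6 to 106 FPKM in WT and from 191 to 470 FPKM in delN12. None of the 8 was at 0 in every library, and 1 of them, Ptprc, was the closest gene of 2 regions. Endothelial markers summed to 6.39 to 15.8 FPKM in WT and 11.96 to 13.9 FPKM in delN12, and 5 of 8 were closest to 9 regions, of which 4 regions were near Erg, whose RNA stayed at or below 0.126 FPKM. The 7 fibroblast markers summed to 1188 to 2053 FPKM in WT and 1887 to 2451 FPKM in delN12. Col1a1 made up much of these sums, at 472 FPKM in WT and 1666 FPKM in delN12 at day 1. At day 11, 3 of the 7 (Postn, Prrx1 and Col3a1) were lower in delN12 and none higher, with a median difference of -0.65. In bulk cultures, more cells of a type and more RNA per cell cannot be told apart, and the part of macrophage RNA or chromatin in the acetylation, ATAC and RNA differences above was not tested.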

How the data were processed

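Peak lists and expression values of MEFs with SALL4-WT or SALL4-delN12 were used. Per the submitters' processing notes, the authors trimmed reads with Trim Galore 0.6.4, aligned them to mm10 with Bowtie2 2.4.5, filtered with SAMtools 1.16.1 and called peaks with MACS 1.4.2. The deposited peak score is −10 × log10 p, with a minimum of 50. By the study's methods, replicates of CUT&Tag were merged, while the handling of ATAC-seq replicates is not given in the sources used here. The authors made FPKM values with HISAT2 2.2.1 and StringTie 2.2.1. FPKM columns of other experiments (9) were not used.

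Overlaps of at least 1 bp, distances and differences of log2(FPKM + 1) were computed in Python 3 (numpy and pandas), and the overlap code was tested on simulated intervals. Coordinates are 1-based. Genes came from GENCODE vM21, and 20462 of its 21840 protein-coding symbols (93.7%) were in the table. Genes with FPKM under 1 in both libraries of a day were left out. Regions named are the 10 highest-scoring and those near listed genes; genes named are those with a region at the promoter and FPKM of at least 5, the 10 largest differences each way at day 11 and 5 at day 9, beside genes of the lists. Genes with most regions were chosen after their values were seen. The set of regions and the gene lists were chosen with earlier results of these data known, and TSSs of protein-coding genes replaced those of all annotated genes after a first pass. Sequences were read from the GRCm38 (mm10) RefSeq assembly. With 1 library per condition no test was made. A single result is not reported here.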

Additional observations from a re-analysis of the deposited data

How the results depend on the processing

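Each condition at each day is 1 library or 1 merged list, so no replicate could be left out. The RNA and ATAC libraries of the 2 forms share their days, but no analysis paired by day was made. The number of regions, 9769, became 16878 with all delN12 peaks of score 50 or more, 3266 from a score of 200, and 5013 with the delN12 list cut to the length of the WT list. It stayed within 1.5 times at 6850 with WT SALL4 scores of 100 or more, 9637 without WT H3K27ac within 1 kb and 9724 with overlap of 0.5 of either peak.

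With regions of score 200 or more, a delN12 SALL4 peak was at 96.51%. ATAC peaks were at 89.07% in MEF, 77.83%, 90.51%, 92.71% and 92.31% in WT, and 95.87%, 96.23%, 96.42% and 89.62% in delN12 at days 1, 5, 9 and 11. With the cut list these were 95.25%, 88.17%, 76.42%, 89.41%, 91.38% and 90.76%, and 94.57%, 94.67%, 95.25% and 86.16%. With 500 bp at the middle of the WT SALL4 peak, an alternative chosen after seeing the data, they were 89.53%, 78.1%, 65.9%, 80.45%, 81.91% and 79.84%, and 84.39%, 82.73%, 84.86% and 71.83%. In all 3 the WT share was lowest at day 1 and the delN12 share was above it then and below it at day 11.

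The share at a TSS was 14.3% with the TSSs of all annotated genes, also chosen after seeing the data. The day 1 median RNA difference was -0.005 from a score of 200 and -0.01 without the FPKM filter. Of the other 30 RNA medians, all stayed inside the interval of the reported one. From a score of 200, motif shares were 16.23% for SOX, 21.44% for FOX, 9.342% for KLF, 6.432% for the AT-rich pattern and 1.133% for OCT. In 100 bp windows they were 5.293% for GATA, 5.375% for SOX, 6.798% for FOX, 3.358% for KLF, 18.09% for AP-1, 9.49% for TEAD, 1.955% for the AT-rich pattern, 11.11% for RUNX, 0.5631% for OCT and 0.6654% for ETS, since a shorter window holds fewer letters. Values counted as moved lay outside the 95% exact binomial interval of the reported share or median, which covers the number of regions or genes only. The peak lists give neither coverage nor summits, so weak WT acetylation is not measured.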
